A study of Arabidopsis thaliana with 8 samples.

Results

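The dehydrins of Arabidopsis thaliana roots were followed through a short phosphate (Pi) withdrawal in wild-type and per1 plants. Of 10 dehydrin loci looked up in the platform annotation of the Affymetrix ATH1 array, 6 had a probeset annotated to 1 gene, out of 13286 loci with such a probeset in all. These 6 were AT4G38410 (probeset 252988_at), COR47 (AT1G20440, 259570_at), LTI30 (AT3G50970, 252102_at), HIRD11 (AT1G54410, 262958_at), AT2G21490 (263753_at) and AT4G39130 (252914_at). Each had a single such probeset. ERD10, ERD14, XERO1 and RAB18 had none in the annotation used and were not analysed here. In the RefSeq order of TAIR10.1 genes, ERD10 lies next to COR47 and XERO1 next to LTI30.

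Plants grew on agar with control medium for 10 days and were moved for another 10 h to control medium or to medium without Pi. Wild-type Col-0 and the mutant per1 each gave roots from either medium, so that there were 4 groups of 2 arrays. Both are labelled with the Col-0 ecotype. The titles call the arrays of a group biological replicates. The sources used here do not give the number of plants per array or of per1 lines. The genotype labels were not checked by the mutated gene: UBP14, where per1 carries its mutation, was not analysed here.

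Dehydrins are a branch of the late embryogenesis abundant (LEA) proteins, very hydrophilic and largely unfolded in solution, and recognised by a lysine-rich stretch called the K-segment. They accumulate in drying seeds and, in leaves and roots, under drought, cold, salt or the hormone abscisic acid (ABA), and are known to protect membranes and enzymes. COR47 is an acidic dehydrin known from cold, drought and ABA treatment. LTI30, also called XERO2, is built mainly of K-segments and binds membranes. HIRD11 is a short, histidine-rich dehydrin that binds metal ions. AT4G38410, AT2G21490 and AT4G39130 are placed in the family by sequence.

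The family was chosen by the measured signals of AT4G38410, the named gene with the highest Pi response in Col-0 and with a response that differed between the genotypes. Its values below are therefore a description, with no test. The other loci came in by family membership. Changes are differences of log2(signal + 16), which understate changes of low signals, with standard errors from 1 limma fit over 22746 probesets, and a gene was called at a Benjamini-Hochberg adjusted p under 0.05.

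In Col-0 roots without Pi, AT4G38410 was the dehydrin that moved most, while COR47 and LTI30 stood slightly higher and HIRD11 stayed close to its control level. Of the 6 loci 1, AT4G38410, was called in the Pi response of Col-0, where 0.0615% of all probesets were called. AT4G38410 was chosen by its Pi responses, so nothing is read from its calls, here or in the comparisons that follow. Of the other 5 loci, 0 were called in limma and 1 had an unadjusted p under 0.05, as had 7.68% of all probesets. In the Pi response of per1, 0 of 6 were called, against 0.0044% of all probesets, and 1 of the other 5 had an unadjusted p under 0.05, beside 4.47% over all. In per1 against Col-0, 0 of 6 were called in control medium, against 0.0572% of all probesets, and 0 of the other 5 had an unadjusted p under 0.05, beside 10.3% over all. In Pi-free medium 1 of 6, again AT4G38410, was called, against 0.0308% of all probesets. In the interaction, which sets the Pi response of per1 against that of Col-0, the same locus was called, against 0.00879% of all probesets. The call in Pi-free medium was lost in 8 of 8 fits without 1 array, and that in the interaction in 7 of 8. For both of these comparisons 0 of the other 5 loci had an unadjusted p under 0.05, beside 10.7% and 5.3% over all. Averaged over the media, per1 against Col-0 had 0 of 6 called, against 0.818% of all probesets, and averaged over the genotypes the Pi response had 1 of 6, AT4G38410, against 0.127%. The median change of these 5 loci was 0.03 in the Pi response of Col-0 and -0.02 in that of per1, beside medians of -0.00074 and 0.02 over all probesets.

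Some facts of the arrays bear on these values. A description field of the samples speaks of iron media, against the titles, and names iron deficiency on 3 arrays: Col-0 control replicate 2, Col-0 Pi-free replicate 2 and per1 Pi-free replicate 1. Groups were taken from the titles, and the values of AT4G38410, COR47, LTI30, HIRD11 and AT2G21490 without these arrays follow the results. Array medians lay between 186 and 197.1. The highest of 27 probesets for bacterial transcripts, none of which stood out as spiked in, read 26.1 to 43.4 per array and served as negative controls. The 3 measured of 10 root cell markers were PRX44 and the root hair genes EXPA7 and EXPA18, so their sum does not cover all root cell types. This sum was 5919 to 7059.6 in Col-0 control and 6161.7 to 6331.1 in Col-0 Pi-free roots. In per1 it was 5867.8 to 6872.9 in control and 4276.7 to 4328.3 in Pi-free roots. The 2 measured of 19 green shoot markers, RCA and LHCB4.1, summed to 468 to 621.3 on the Col-0 arrays and to 283.3 to 341.9 on the per1 arrays. No marker read 0. For actin the signal of the 3' probeset over that of the 5' probeset, which rises as RNA degrades, was 4.07 and 5.49 in Pi-free and 4.98 and 6.38 in control Col-0 roots, and 4.58 and 4.21 in Pi-free and 5.03 and 5.15 in control per1 roots. The same ratio for GAPDH was 1.51 and 1.61 in Pi-free and 1.32 and 1.57 in control Col-0 roots, and 1.44 and 1.22 in Pi-free and 1.31 and 1.58 in control per1 roots, so in Col-0 it stood higher where that of actin stood lower. The part of these differences in the dehydrin values was not tested.

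AT4G38410 was low in Col-0 roots with Pi and high in Col-0 roots without it. Its signal in Col-0 was 421.4 and 362.5 with Pi and, without it, 1856.4 and 2484.5, on the arrays of replicates 1 and 2. In per1 it was 579.3 and 620.2 with Pi and 646.4 and 769.3 without. The 2 Pi-free Col-0 arrays stood far above the other 6 arrays, and both per1 control arrays stood above both Col-0 control arrays. On the log2 scale the Pi response was 2.41 ± 0.16 (SE) in Col-0, with 2.10 and 2.72 within replicate numbers 1 and 2. Of the 22746 probesets 1 had a higher Pi response in Col-0. In per1 the response was 0.23 ± 0.16, with 0.15 and 0.30 within the replicate numbers.

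The genotype difference of AT4G38410 had opposite signs in the 2 media. In control medium per1 was higher by 0.60 ± 0.16, with 0.44 and 0.75 within the replicate numbers, and in Pi-free medium per1 was lower, at -1.59 ± 0.16, with -1.50 and -1.67. The interaction was -2.18 ± 0.22. From low to high the groups stood as Col-0 control, per1 control, per1 Pi-free and Col-0 Pi-free, with group means and SDs (n = 2) of 392 ± 41.6, 600 ± 28.9, 708 ± 86.9 and 2170 ± 444. The neighbouring per1 groups did not overlap, and their means lay little more than the SD of the higher one apart. In these root extracts, fewer cells that hold a transcript and less transcript per cell cannot be told apart.

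**Figure D1:**
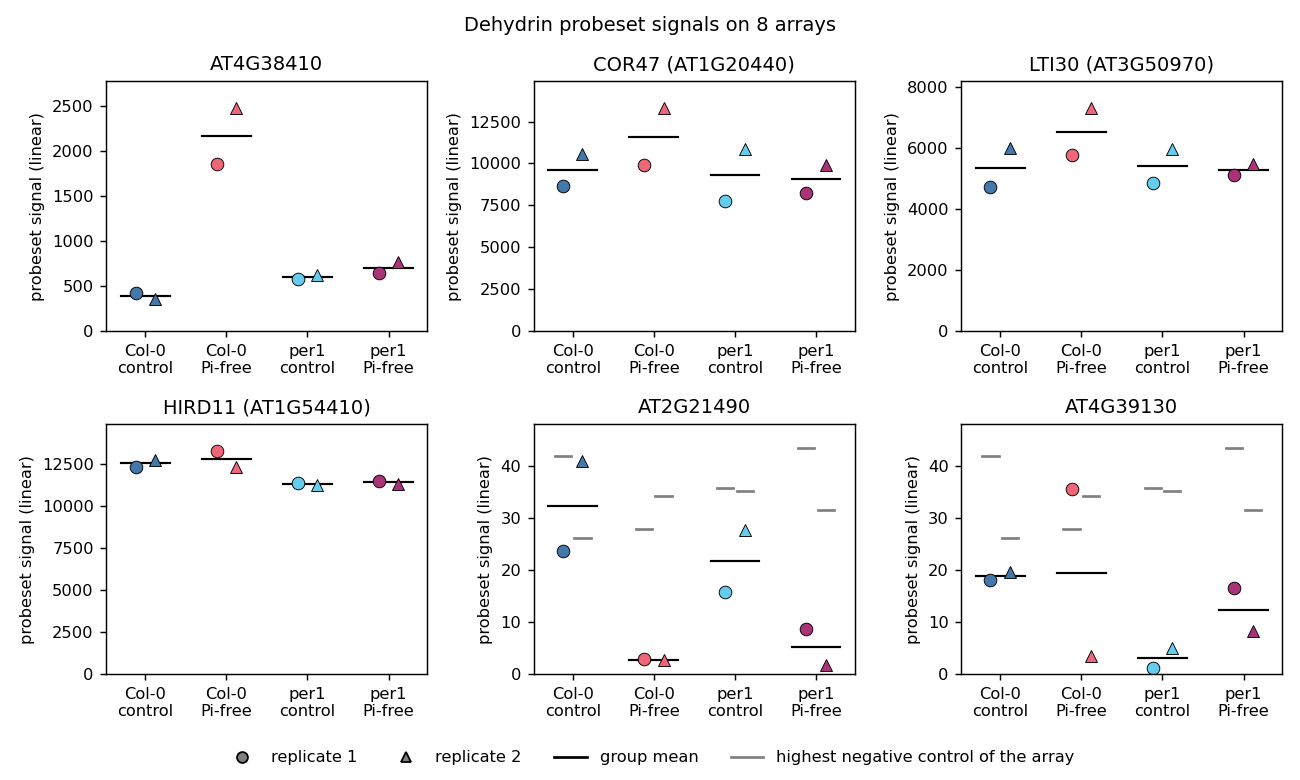
Probeset signal (linear, arbitrary units) of the 6 dehydrin genes on each of the 8 arrays, by group. Circles are replicate 1, triangles replicate 2, black bars group means, and grey bars in the last 2 panels the highest negative control of each array. The 2 Pi-free Col-0 arrays of AT4G38410, at 1856.4 and 2484.5, stand above the others, and the last 2 genes lie mostly under the negative controls.

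COR47 was among the bright probesets in every group and changed little. In Col-0 its signal was 8651.8 and 10546.3 in control medium and 9886.5 and 13317.3 in Pi-free medium. In per1 it was 7775 and 10848.1 in control medium and 8232 and 9895.5 in Pi-free medium. All 4 groups overlapped each other. The Pi response was 0.26 ± 0.20 in Col-0 (limma adjusted p = 0.81, 95% interval -0.18 to 0.71) and -0.03 ± 0.20 in per1 (adjusted p = 1, interval -0.47 to 0.42). A Col-0 response of 0.7 on the log2 scale lies inside the COR47 interval. In Pi-free medium per1 stood at -0.35 ± 0.20 against Col-0, with an adjusted p from limma of 0.58.

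LTI30 had nearly the same profile as COR47. Its signal was 4715.7 and 6027.3 in Col-0 control roots, 5772.3 and 7329.1 in Col-0 Pi-free roots, 4851.8 and 5986.4 in per1 control roots and 5121.4 and 5477.8 in per1 Pi-free roots. The Pi-free groups of the 2 genotypes did not overlap, with both per1 arrays under both Col-0 arrays; all other pairs of groups did overlap. Of the 6 loci 3, AT4G38410, LTI30 and HIRD11, had both Pi-free per1 arrays under both Pi-free Col-0 arrays, as had 19.8% of all probesets, and 0 had both above, as had 20.5%. The Pi response of LTI30 was 0.29 ± 0.16 in Col-0, with 0.29 and 0.28 within the replicate numbers, and -0.02 ± 0.16 in per1, with 0.08 and -0.13. The limma adjusted p was 0.74 and 1, and the 95% interval for Col-0 was -0.08 to 0.65. The difference between the genotypes in Pi-free medium was -0.30 ± 0.16, with an adjusted p of 0.56.

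Much of the variation of COR47 and LTI30 followed the replicate number. In each of the 4 groups the array of replicate 2 read above that of replicate 1 for both genes, by a mean of 0.36 for COR47 and 0.27 for LTI30 on the log2 scale, beside Pi responses in Col-0 of 0.26 and 0.29. Over all probesets 8.72% were higher on replicate 2 in all 4 groups. Across the 8 arrays COR47 and LTI30 had a Pearson correlation of 0.96 on the log2 scale, and these arrays share the replicate numbers and the treatments. AT4G38410 correlated less with them, at 0.56 with COR47 and 0.64 with LTI30.

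HIRD11 was the steadiest member. It read 12314.5 and 12743.9 in Col-0 control roots, 13250.2 and 12296.8 in Col-0 Pi-free roots, 11336.2 and 11258 in per1 control roots and 11498.2 and 11270.6 in per1 Pi-free roots. All 4 per1 arrays stood under all 4 Col-0 arrays, and within a genotype the media overlapped. Its SD over the 8 arrays was 0.091 on the log2 scale, and 91.4% of the probesets with a mean above the median of all had a larger one. That set includes far dimmer probesets, and those about as bright as HIRD11 were not compared separately. The Pi response was 0.03 ± 0.11 in Col-0, with a 95% interval of -0.21 to 0.26, and 0.01 ± 0.11 in per1, with an interval of -0.23 to 0.25. Averaged over the media, a comparison added after the values were seen, per1 stood at -0.16 ± 0.07 against Col-0 and missed the threshold (limma adjusted p = 0.39). Of the 6 loci 1 had all per1 arrays under all Col-0 arrays, as had 4.79% of all probesets, and 0 had all above, as had 4.09%.

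The remaining pair, AT2G21490 and AT4G39130, gave signals in the range of the negative controls. Each exceeded the highest negative control on 1 of 8 arrays, AT2G21490 on a Col-0 control array and AT4G39130 on a Pi-free Col-0 array. AT2G21490 read 23.6 and 41 in Col-0 control, 2.9 and 2.7 in Col-0 Pi-free, 15.8 and 27.7 in per1 control and 8.7 and 1.9 in per1 Pi-free roots. All 4 Pi-free arrays stood under all 4 control arrays. The difference was -1.34 ± 0.34 in Col-0 and -0.83 ± 0.34 in per1, and averaged over the genotypes, also added after the values were seen, -1.08 ± 0.24. These had unadjusted p of 0.0030, 0.036 and 0.0012, and adjusted p from limma of 0.36, 1 and 0.24, so none passed. Of the 6 loci 1 had all Pi-free under all control arrays, as had 1.21% of all probesets, and 1, AT4G38410, had all above, as had 1.82%. At signals this close to the negative controls no level was measured for most arrays. With a pseudocount of 1 in place of 16 the difference in Col-0 was -3.08, and with 64 it was -0.52.

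AT4G39130 read 18.2 and 19.6 in Col-0 control, 35.5 and 3.6 in Col-0 Pi-free, 1.2 and 5 in per1 control and 16.5 and 8.3 in per1 Pi-free roots. The Pi-free Col-0 arrays spanned nearly the whole range of the gene. Its Pi response was -0.14 ± 0.44 in Col-0 and 0.56 ± 0.44 in per1, and the genotype difference in control medium was -0.88 ± 0.44, with an adjusted p from limma of 0.97, 1 and 0.54. In control medium HIRD11 and AT4G39130, 2 of the 6 loci, had both per1 arrays under both Col-0 arrays, as had 22.3% of all probesets. AT4G38410 alone had both above, as had 19.1%.

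**Figure D2:**
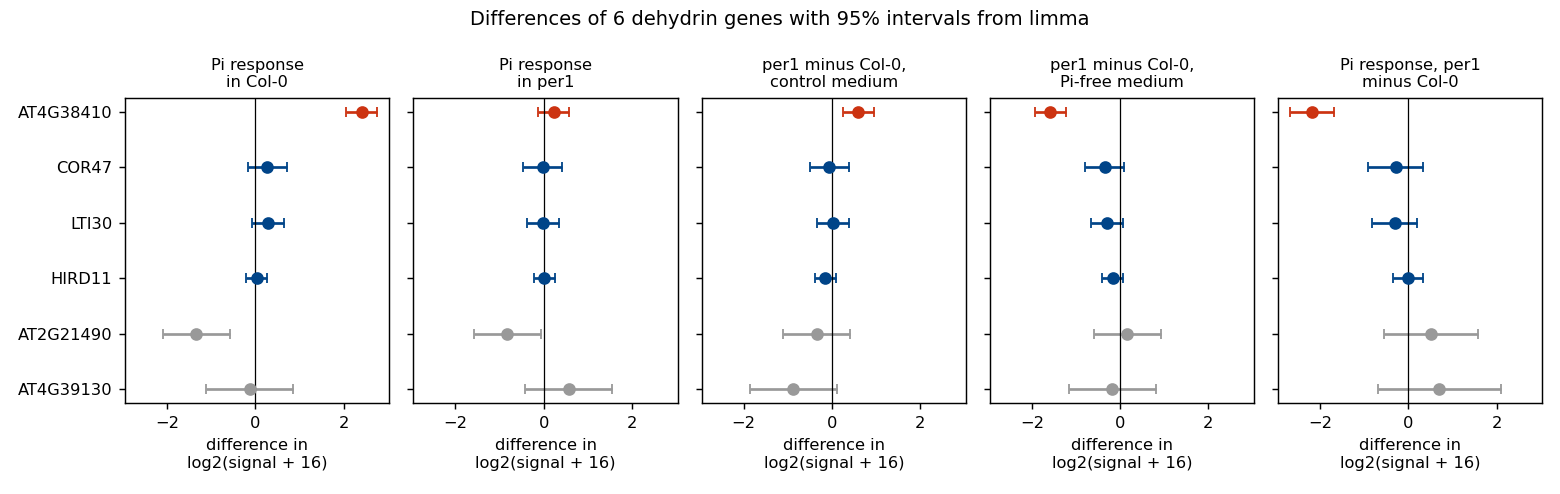
Differences in log2(signal + 16) of the 6 dehydrin genes (x axis) in 5 comparisons (panels), with 95% intervals from limma; red marks AT4G38410, which was chosen for its differences, blue the other bright genes and grey the genes in the range of the negative controls. COR47, LTI30 and HIRD11 have intervals that include 0 in every panel of this fit, which has no term for the replicate number.

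Within each genotype 1 or 2 of the 6 dehydrins had groups that did not overlap by medium in a given direction. AT4G38410, counted here, was chosen for its Pi response in Col-0. In Col-0 AT4G38410 had both Pi-free arrays above both control arrays, as had 17.7% of all probesets, and AT2G21490 had both below, as had 17.5%. In per1 AT4G38410 and AT4G39130 had both above, as had 19.2%, and AT2G21490 had both below, as had 14.5%. Neither COR47, LTI30 nor HIRD11 was separated by medium in either genotype.

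**Figure D3:**
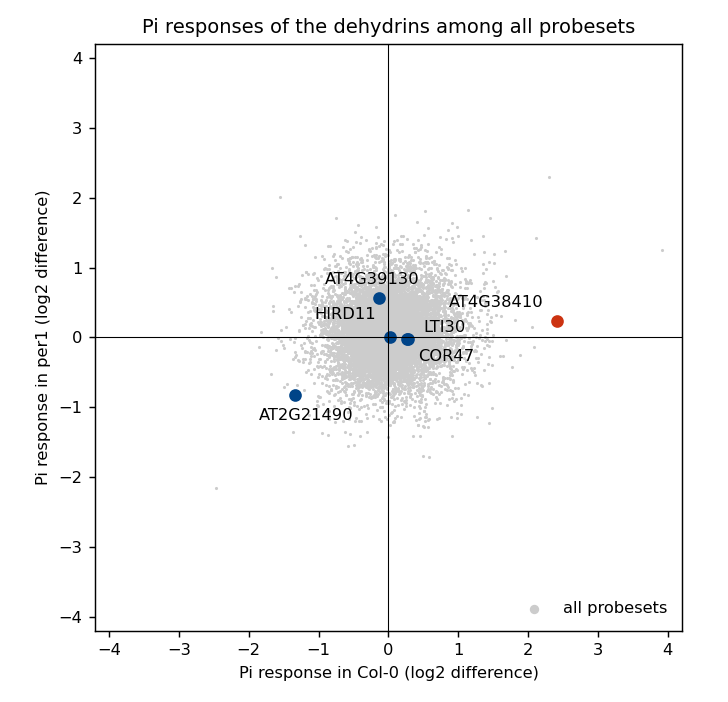
Pi response in Col-0 (x axis) against that in per1 (y axis), both as log2 differences, for 22746 probesets (grey) with the dehydrins marked. AT4G38410 lies at 2.41 and 0.23, while COR47, LTI30 and HIRD11 lie in the dense centre.

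The interaction of the 5 other loci did not pass the test. It was -0.29 ± 0.28 for COR47, -0.31 ± 0.23 for LTI30, -0.02 ± 0.15 for HIRD11, 0.51 ± 0.48 for AT2G21490 and 0.70 ± 0.62 for AT4G39130. The limma adjusted p were 0.92 to 0.99. The 95% intervals were -0.92 to 0.34 for COR47, -0.82 to 0.20 for LTI30 and -0.35 to 0.32 for HIRD11.

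The values of AT4G38410 were also taken without the 3 arrays whose description names iron deficiency. It then had a Pi response of 2.10 in Col-0 and 0.35 in per1, a genotype difference of 0.49 in control and -1.25 in Pi-free medium, and an interaction of -1.75. The Pi response in Col-0 was then 0.19 for COR47, 0.29 for LTI30, 0.11 for HIRD11 and -1.07 for AT2G21490, and that in per1 was 0.11, 0.023, -0.0034 and -1.06. The difference in Pi-free medium was 0.0013 for COR47, -0.075 for LTI30, -0.23 for HIRD11 and -0.078 for AT2G21490. The remaining 5 arrays leave 1 residual degree of freedom. In Pi-free medium they set 1 array against 1, replicate 2 of per1 against replicate 1 of Col-0. Genotype and replicate number cannot be told apart in that difference. With all arrays it was -0.26 and -0.43 for COR47 within replicate numbers 1 and 2, and -0.17 and -0.42 for LTI30.

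Genes with a profile like that of AT4G38410 were sought among 5966 other named probesets whose mean log2 value exceeded the median of all probesets. The 5 highest Pearson correlations over the 8 arrays belonged to AT3G46600, a GRAS-family gene, at 0.97, AT1G14670 at 0.96, and AT1G12845, AT4G01870 and AT2G18690 at 0.95, and 23 genes exceeded 0.9. The points share their replicate numbers and the 2 bright Pi-free Col-0 arrays. Without those 2 arrays the correlations over the other 6 were 0.92 for AT3G46600, 0.75 for AT1G14670, 0.48 for AT1G12845, 0.47 for AT4G01870 and 0.61 for AT2G18690. AT3G46600 read 209.9 ± 10.2 (SD, n = 2) in Col-0 control and 370.2 ± 53.5 in Col-0 Pi-free roots. In per1 it read 256 ± 0.21 in control and 263 ± 9.12 in Pi-free roots, so its control level also lay above that of Col-0. Its genotype difference in control medium was 0.27. That of AT1G14670, AT1G12845, AT4G01870 and AT2G18690 was 0.03, -0.04, 0.0016 and -0.014. The Pi responses of the 5 genes in Col-0 ran from 0.29 for AT1G14670 to 0.99 for AT2G18690. In per1 they ran from 0.04 for AT3G46600 to 0.36 for AT2G18690. Those are smaller differences than the 2.41 of AT4G38410 in Col-0.

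**Figure D4:**
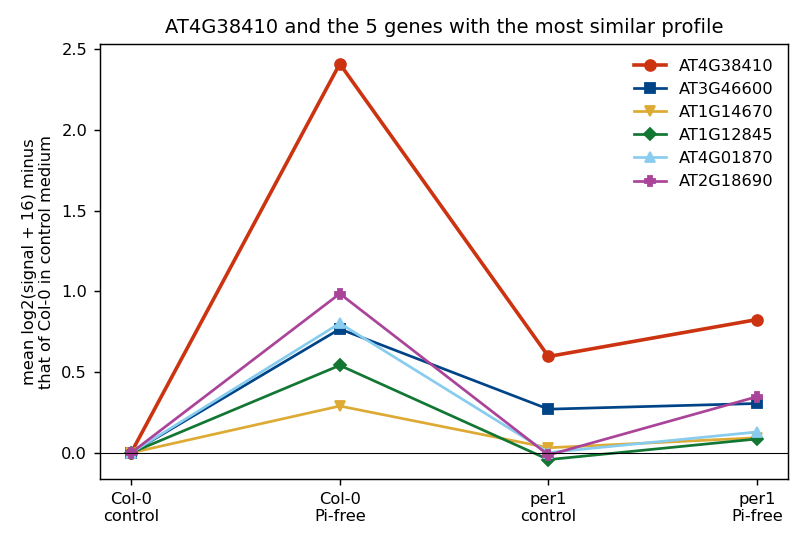
Group means of log2(signal + 16), minus the Col-0 control mean, for AT4G38410 and the 5 genes with the highest correlation to it over 8 arrays. The 6 profiles peak in Col-0 Pi-free roots, at 2.41 for AT4G38410 and 0.29 to 0.99 for the others. The genes were chosen by that correlation, so a peak shared with AT4G38410 comes with the choice and is no separate result.

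The other LEA proteins were the nearest relatives to compare. Of 41 loci, 29 had a named probeset. Of these, 4 stood above the negative controls on all 8 arrays, 11 on some and 14 on none, COR15A, a cold-regulated chloroplast protein, among the last. In the Pi response of Col-0 19 of 29 were above 0, as were 49.9% of all probesets, with a median of 0.17 beside -0.00074 over all probesets, and 0 were called in limma, with 1 at an unadjusted p under 0.05. In per1 20 of 29 were above 0, as were 54.1% of all probesets, with a median of 0.11 beside 0.02, and 0 were called, with 2 at an unadjusted p under 0.05. In per1 against Col-0 12 of 29 were above 0 in both media, as were 47.5% (control) and 50.5% (Pi-free) of all probesets. The medians were -0.05 and -0.12, beside -0.02 and 0.0035 over all, and 0 were called. Unadjusted p under 0.05 were found for 2 in control and 4 in Pi-free medium, near the 10.3% and 10.7% over all probesets. In the interaction 0 were called, with 1 at an unadjusted p under 0.05, as had 5.3% of all probesets. For the Pi responses this share was 7.68% in Col-0 and 4.47% in per1. Over all probesets 0.0615% were called in the Pi response of Col-0 and 0.0044% in that of per1. The called shares were 0.0572% and 0.0308% for the genotype difference in control and Pi-free medium, and 0.00879% for the interaction. Having 0 of 29 called lies near these shares.

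The 3 other LEA genes with the smallest p in the Pi response of Col-0 were AT1G72100 at -0.73 ± 0.29, AtLEA4-1 at 0.93 ± 0.46 and AT3G53770 at 0.62 ± 0.33, with limma adjusted p of 0.61, 0.69 and 0.72. They exceeded the negative controls on 0, 1 and 1 arrays. The 4 loci above the controls on all arrays, singled out for that, were AT2G23120 at 0.19 ± 0.18, AT2G44060 at 0.21 ± 0.13, DI21 at 0.06 ± 0.11 and AT2G46140 at -0.04 ± 0.10. Their changes resembled in size those of COR47, LTI30 and HIRD11. LEA4-5, chosen after its values were seen for the lowest interaction in the list, read 27.6 and 141.5 in Col-0 control, 98.7 and 217.6 in Col-0 Pi-free, 109.4 and 81 in per1 control and 18.1 and 63.8 in per1 Pi-free roots. Its interaction of -2.06 ± 0.87 had an adjusted p from limma of 0.92.

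**Figure D5:**
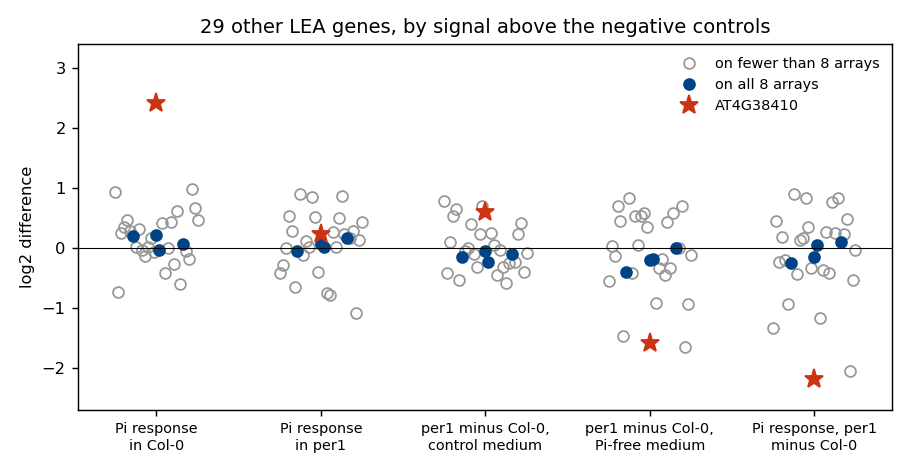
Log2 differences of 29 other LEA genes in 5 comparisons, filled where the gene stood above the negative controls on all 8 arrays (4 genes) and open otherwise; the star is AT4G38410. The 4 filled genes lie within -0.41 and 0.21 in the panels of the Pi responses and genotype differences.

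Other genes of the cold, drought and ABA pathways could hardly be followed. Of 35 cold, drought and ABA regulated genes and of 28 genes of ABA synthesis, breakdown and core signalling, 0 had a named probeset. The annotation used names 1 gene for 13513 of 22746 probesets. Whether the array holds probesets for these genes among the rest was not checked. Of 18 CBF, DREB, ABF and related transcription factor genes 1 had, STZ, also known as ZAT10, a zinc finger repressor induced by many stresses. STZ read 121.6 and 143.5 in Col-0 control, 275.6 and 369.5 in Col-0 Pi-free, 213.3 and 157.3 in per1 control and 246.6 and 233.2 in per1 Pi-free roots. Like AT4G38410, it had its highest readings on the 2 Pi-free Col-0 arrays and its lowest on the Col-0 control arrays. Its Pi response was 1.18 ± 0.22 in Col-0, with an adjusted p from limma of 0.16, and 0.36 ± 0.22 in per1, with an adjusted p of 1. Its interaction was -0.82 ± 0.31 (limma adjusted p = 0.92).

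The measured genes around AT4G38410 stood close to 0 in the Pi response of Col-0. Among the 5 protein-coding genes on either side of it in the RefSeq order, 3 had a named probeset, AT4G38380, EXLA2 and IYO. The genes directly beside it had none. The Pi responses of these 3 in Col-0 were -0.05, 0.07 and 0.01, and 0 were called in limma in any of the 5 comparisons. In per1 their Pi responses ran from -0.23 to 0.42. Their genotype differences in Pi-free medium ran from -0.04 to 0.52. Around the other 5 dehydrins 4 to 7 of 10 neighbours were measured, and 0 were called in these comparisons. Over all probesets 0.0044% to 0.0615% were called in them.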

How the data were processed

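RNA from roots was labelled and hybridised to ATH1 arrays following the array maker's manual, per the labels' protocols. The deposited values are linear signal intensities, 1 per probeset and array; their summarising software is not given in the sources used here. All 8 arrays had a 2% trimmed mean of 500, so the authors had scaled them. The number of arrays limits the precision.

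The 64 control probesets were left out and 22746 were fitted as log2(signal + 16) in R 4.3.3 (limma 3.58.1), using a mean for each group, moderated variances with an intensity trend, and p-values adjusted over all probesets (Benjamini-Hochberg). Intervals use the moderated degrees of freedom. The fit was tested on simulated data for the Pi response in Col-0, with log2 changes of 1 and 2 in bright probesets. It called 66% and 95.4% of these changes, and 4.23% of its calls were false. The simulated arrays had no replicate effect. Changes as small as those of COR47 and LTI30 were not tried, so the simulation says nothing about them. Of 13513 probesets with 1 gene, 13436 matched a TAIR10.1 locus, and the brightest stood for its locus. Groups came from the titles. The titles call the arrays of a group biological replicates.

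The members, lists and comparisons were chosen with earlier results of these data known. The text names every measured dehydrin, in each list the 3 genes with the smallest p in the Col-0 Pi response, and the 5 genes most correlated with AT4G38410; exceptions are stated. Alternatives were pseudocounts of 1 and 64, quantile normalization, a signal filter, no trend, a replicate block, and leaving arrays out.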

Additional observations from a re-analysis of the deposited data

Results flagged for a closer look

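The Pi response of AT4G38410 differed between the genotypes by -2.18 on the log2 scale (per1 minus Col-0), with -1.94 and -2.42 within replicate numbers 1 and 2. It stands here because its interaction was past the threshold of the fit; the gene was chosen for this difference, so the value is a description. No group had enough arrays for a check of single arrays against their group.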

How the results depend on the processing

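Over the 15 alternatives, 0 of the 5 dehydrins other than AT4G38410 were called in any comparison. Of their 511 alternative values 477 kept their sign and 34 changed it. AT4G38410 kept its sign throughout, but it was chosen by these signals, so the calls listed for it are a description. Its Pi response in Col-0 was called in all 8 fits without 1 array, its difference in Pi-free medium in 0 of them, and its interaction in 1, that without replicate 1 of Col-0 in Pi-free medium. The count of dehydrins called was 0 in place of 1 without the intensity trend for the Pi response in Col-0, for that averaged over genotypes, for the difference in Pi-free medium and for the interaction. It was also 0 in these without the 3 arrays described with iron deficiency, and 0 for the interaction with a pseudocount of 64 or quantile normalization. With only probesets above the median signal it was 1 in place of 0 for the averaged genotype difference. Without 1 array it ranged from 0 to 1 for the interaction and both averaged comparisons, being 1 for the averaged genotype difference without Col-0 Pi-free replicate 1 and 0 for the averaged Pi response without per1 Pi-free replicate 2.

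The probesets called over the whole array moved more. The Pi response in Col-0 had 14, then 26 with a pseudocount of 1, 37 above the median signal, 1 without the trend, 31 with the replicate block and 3 to 4 without 1 array. The Pi response in per1 had 1, then 2, 7, 0, 4 and 0 to 2. The genotype difference in control medium had 13, then 20, 54, 0, 42 and 1 to 14. That in Pi-free medium had 7, then 16, 63, 0, 48 and 0, and 2 with a pseudocount of 64. The interaction had 2, then 1 with a pseudocount of 64 or quantile normalization, 0 without the trend and 0 to 2 without 1 array. The averaged genotype difference had 186, then 365 above the median signal, 0 without the trend, 357 with the block and 12 to 232 without 1 array. The averaged Pi response had 29, then 61, 2, 49 and 2 to 27. Without the 3 arrays all 7 counts were 0, while 875 to 1758 probesets had an unadjusted p under 0.05; the zeros without the trend had 1114 to 2845. That setting left 1 residual degree of freedom; the causes of the other shifts were not tested.

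Sign changes outside the fits without 1 array were these. Under quantile normalization COR47 stood at 0.00073 in the Pi response of per1 and HIRD11 at 0.020 in the interaction. Without the 3 arrays AT4G39130 stood at 0.59 in the Pi response of Col-0 and -0.24 in the interaction. In the Pi response of per1 COR47 stood at 0.11, LTI30 at 0.023 and HIRD11 at -0.0034. COR47 stood at 0.086 in control medium, 0.0013 in Pi-free medium and 0.044 averaged, AT2G21490 at -0.078 in Pi-free medium and LTI30 at 0.058 averaged. Leaving out 1 array at a time gave -0.027 to 0.081 for HIRD11 and -0.83 to 0.56 for AT4G39130 in the Pi response of Col-0. In that of per1 it gave -0.26 to 0.21 for COR47, -0.18 to 0.13 for LTI30 and -0.0034 to 0.025 for HIRD11. The genotype difference ran from -0.30 to 0.18 for COR47 and -0.16 to 0.19 for LTI30 in control medium, and from -0.87 to 0.52 for AT4G39130 and -0.071 to 0.39 for AT2G21490 in Pi-free medium. The interaction of HIRD11 ran from -0.070 to 0.038 and the averaged genotype difference of AT2G21490 from -0.23 to 0.037. The averaged Pi response ran from -0.0079 to 0.046 for HIRD11, -0.13 to 0.56 for AT4G39130 and -0.00040 to 0.24 for COR47. Each locus had 1 probeset, so no other probeset could stand in.

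The replicate numbers share only a number: deviations from the group means correlated by 0.0021 to 0.077 between groups, a weak hint from the data. With 2 arrays per group these deviations mirror each other. Positive correlations then fix in advance that all 8 arrays correlate best with an array of their own number. With the replicate block the adjusted p of LTI30 from limma in the Pi response of Col-0 was 0.47, that of COR47 0.52, and no call among the 5 changed. Their blocked 95% intervals there left out 0, at 0.052 to 0.52 for LTI30 and 0.020 to 0.51 for COR47, and 3 of the 5 had an unadjusted p under 0.05 in place of 1, beside 9.09% in place of 7.68% of all probesets. In Pi-free medium the genotype intervals were -0.53 to -0.062 for LTI30 and -0.59 to -0.10 for COR47 (limma adjusted p = 0.29 and 0.24), and 2 of the 5 had such a p in place of 0, beside 12.4% in place of 10.7%. For the averaged genotype difference it was 1 in place of 0, beside 15.8% in place of 14.1% of all probesets. This was COR47, with an interval of -0.37 to -0.029. Signals near the negative controls limit AT2G21490 and AT4G39130.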
